A study of Rattus norvegicus with 8 samples.

Results

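Adipose-derived stem cells (ASC) are the fibroblast-like precursors that lie in the stroma of fat and can be grown in culture. The comparison described here is of undifferentiated ASC from rats on 2 diets, and it holds 4 of the 8 libraries of the series, chosen by their labels, with all 14295 genes listed for them. The ASC_C group (replicates 1 and 2, C below) came from the inguinal fat of wild-type (WT) Wistar rats on a control diet, and the ASC_HFS group (replicates 1 and 2, HFS below) from rats on a high-fat sucrose diet, both for 6 months. Cells of both groups were freed from the fat with collagenase and kept in DMEM F12 medium with 10.0% fetal bovine serum, and their RNA was sequenced as 50 bp paired-end reads. The labels give neither age, sex nor passage, and nothing in them tells if the 2 libraries of a diet are different rats or different dishes, so every p-value below measures the spread between these samples, which may be technical. The study's stated question was whether diet-induced obesity leaves a lasting change in the precursors. The libraries of adipocytes differentiated from these cells were not analysed here.

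In fat, these cells lay down and remodel the collagen matrix, answer cytokines through the transcription factor NF-kB by secreting chemokines, and become adipocytes when the factors PPARG and C/EBP are switched on. Collagenase frees all cells of the stroma, so that a culture can also hold macrophages, mast cells, endothelial cells and pericytes, and the inguinal pad of rodents surrounds mammary gland. In bulk libraries, a change in the number of cells of a type and a change in the RNA per cell cannot be told apart.

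The values below are normalized counts, that is, reads divided by the size factor of the library, and are given in the order C replicate 1, C replicate 2, HFS replicate 1, HFS replicate 2. Depth was uneven, at 3339269 and 7290961 reads in C and 5851960 and 992618 in HFS. In HFS replicate 2, the shallowest, a floor of 3 reads was equal to 10.9 normalized counts and 10.6% of genes had no reads. The 10 genes with the most reads took 6.05% and 7.10% of reads in C and 12.1% and 12.5% in HFS. Replicates of a group differed by more than counting error, with a mean chi-square per gene of 36.9 in C and 9.26 in HFS (1 degree of freedom), and were counted as separate samples.

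The labelled cell type was checked first. Defining transcripts of mesenchymal progenitors were present in all 4 libraries: Dcn, which codes for the small proteoglycan decorin, had 20109 and 19292 in C and 12836 and 15136 in HFS, and the receptor gene Pdgfrb had 773 and 684 in C and 728 and 602 in HFS. Neither passed the test (adjusted p = 0.433 and 0.789). Within the list of 25 of 27 measured progenitor markers, 9 rose, 3 fell and 13 did not pass, where 9.41% of all genes tested were called higher and 9.7% lower. Pi16, a marker of the early progenitors of the fibrous interstitium, had 405 and 1182 in C and 6239 and 4294 in HFS, a 6.64-fold rise (adjusted p = 6.97e-04). Dpp4, which marks the same early stage, had 20.4 and 17.04 in C and 78.6 and 105 in HFS (adjusted p = 0.00429), and the stem cell antigen gene Cd34 had 29.6 and 75.3 in C and 325 and 192 in HFS (adjusted p = 0.00252). Icam1, the adhesion receptor gene that marks committed preadipocytes and is also an NF-kB target, rose as well, with 497 and 374 in C and 2212 and 2807 in HFS. By contrast Pdgfra, the platelet-derived growth factor receptor that defines these cells, had 2437 and 1795 in C and 622 and 537 in HFS and was 3.65-fold lower (adjusted p = 0.00164). Thy1, the classical stromal surface antigen, had 1572 and 678 in C and 201 and 261 in HFS (adjusted p = 0.00224), and Lum, which codes for the small proteoglycan lumican, had 3340.3 and 2527 in C and 533 and 693 in HFS (adjusted p = 5.08e-04). For each of these 7 genes the HFS values lay wholly on 1 side of the C values, as they did for all 2731 called genes and for 61% of all genes. Y-linked Eif2s3y, Kdm5d and Uty had reads in all 4 libraries.

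Over all 14295 genes, limma-trend called 2731 (19.1%) at an adjusted p under 0.05, of which 1345 (9.41%) rose and 1386 (9.7%) fell in HFS. The difference was at least 2-fold in mean normalized counts for 1283 of those that rose and 1359 of those that fell. Among the 5468 genes with a mean of at least 100 normalized counts, 16.4% rose and 12.9% fell, and most genes named below belong to them. The lists below hold 1757 distinct measured genes, of which 353 rose and 273 fell. A second model on the recovered reads, limma-voom, called 2584 of the 2731 in the same direction and none in the opposite one, with 1701 higher and 1500 lower in all. With every library thinned to the depth of the shallowest, limma-trend called 0 genes. There, 3835 had an unadjusted p under 0.05 and the lowest adjusted p was 0.0939. The thinned fit used log2(normalized count + 1) with new size factors and not the deposited scale, so both depth and scale differ from the main fit. When single libraries were left out, limma-trend called 0 genes each time, with 2318 to 4538 genes at an unadjusted p under 0.05, while limma-voom called 741 to 1553 higher and 312 to 2070 lower. Only part of the 2731 were called by limma-voom whichever library was left out, a smaller part among those that fell. The genes called robust to single libraries below are among them. Not every such gene is marked below: Cxcl1, Cxcl2, Cd74 and Hmox1 are also among them. Beside each list whose counts are given, limma-voom's count is given for each left-out library that moved it by more than 1.5 times. Moves between counts that were both under 3 were left out.

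**Figure D1:**
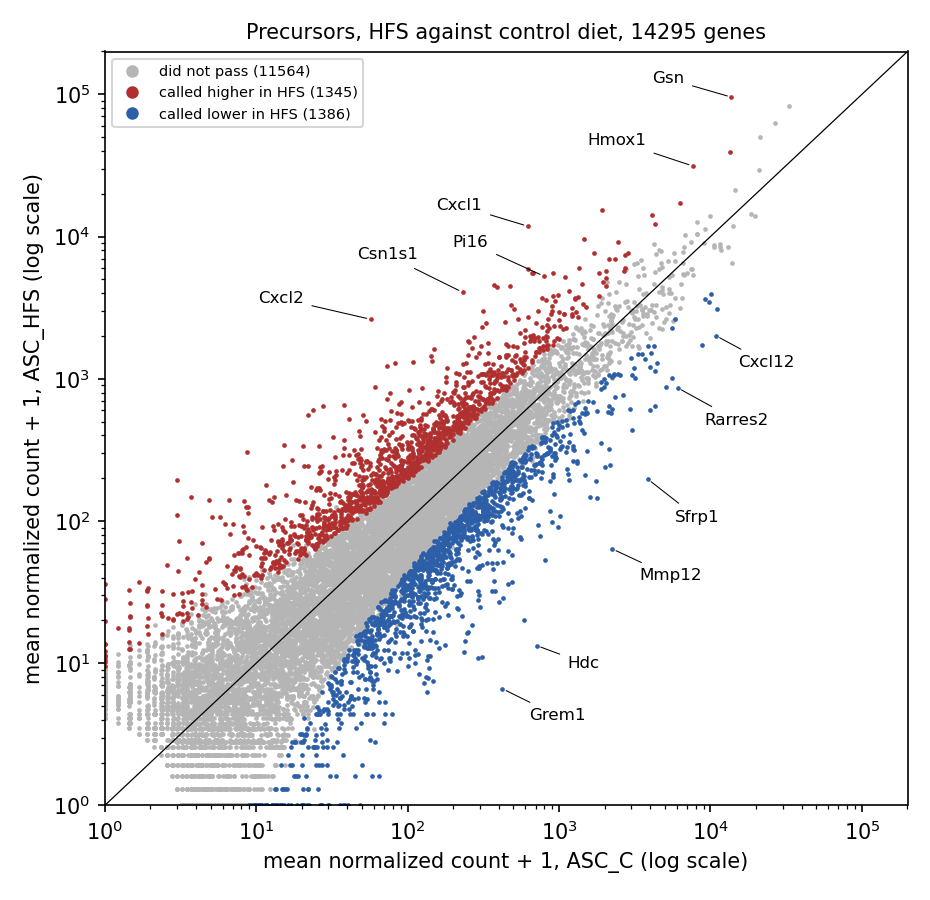
Mean normalized counts of each of the 14295 genes in the 2 C libraries (x axis) and in the 2 HFS libraries (y axis), both on a log scale after adding 1, with the 1345 genes called higher in red, the 1386 called lower in blue and the others in grey. Labelled genes are the chemokine genes Cxcl1 and Cxcl2 and other genes named in the text, and they lie far from the diagonal of equal levels.

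Several chemokine genes rose in HFS, led by Cxcl1 and Cxcl2, and others fell. Of 13 of 15 measured CXC chemokines, 8 rose, 2 fell and 3 did not pass (median log2 difference 1.18, against -0.04 over all genes). Cxcl2, a neutrophil attractant, had 43.5 and 68.6 in C and 2311 and 2926 in HFS (adjusted p = 2.25e-06), and its neighbour Cxcl1 had 488 and 753 in C and 9189 and 14458 in HFS (adjusted p = 2.10e-05). Both HFS libraries were more than 10 times above both C libraries for each of the pair. Cxcl10 and Cxcl9 code for ligands of CXCR3, a chemokine receptor carried by T cells. Cxcl10 had 23.2 and 57.4 in C and 289.96 and 290.1 in HFS (adjusted p = 2.88e-04). Cxcl9 had 12.04 and 36.8 in C and 118 and 105 in HFS (adjusted p = 0.00479). Cx3cl1, whose membrane-bound product tethers monocytes, had 54.7 and 119.7 in C and 670.4 and 664 in HFS, a 7.65-fold rise (adjusted p = 1.15e-04). Cxcl12, the homeostatic stromal chemokine that holds blood cells in their niche, moved the other way, with 13428 and 8324 in C and 1899 and 2110.5 in HFS, and was 5.43-fold lower (adjusted p = 8.96e-04). The other CXC member that fell was Cxcl6, a neutrophil attractant, with 752 and 619.6 in C and 443 and 221 in HFS (adjusted p = 0.039). The receptor gene of Cxcl12, Cxcr4, rose from 182 and 531 to 1169 and 1055 (adjusted p = 0.00789). The CC chemokines were split: of 14 of 18, 6 rose, 4 fell and 4 did not pass (median 0.22). The macrophage inflammatory protein gene Ccl3 had 132 and 117 in C and 743 and 975 in HFS (adjusted p = 9.32e-05), and the lymphatic chemokine gene Ccl21 9.26 and 6.28 in C and 139.7 and 87.03 in HFS (adjusted p = 4.48e-04). Ccl12, a monocyte attractant of rodents, had 719.7 and 459.5 in C and 34.9 and 3.63 in HFS and fell (adjusted p = 3.44e-05), as did Ccl20, which attracts cells bearing CCR6, with 622 and 570.3 in C and 178 and 192 in HFS (adjusted p = 0.00203), the eosinophil attractant gene Ccl11 and Ccl22, a ligand of CCR4. Ccl7, another monocyte attractant, had 7177 and 6103 in C and 8953 and 7949 in HFS and did not pass (adjusted p = 0.548).

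**Figure D2:**
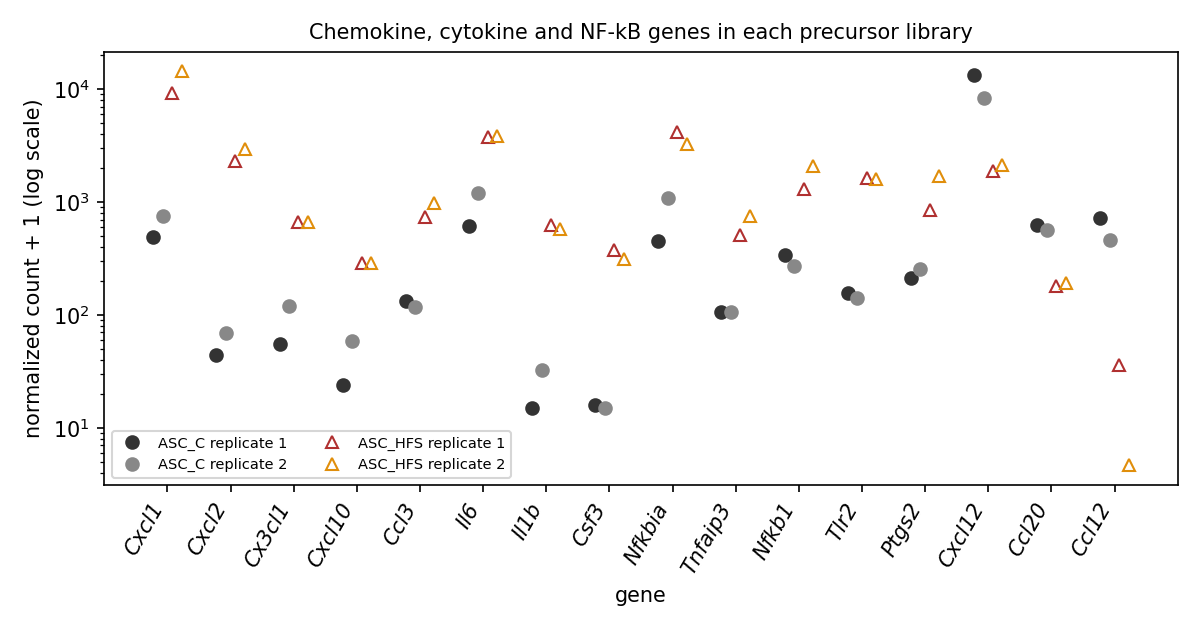
Normalized counts of 16 secreted and NF-kB genes in each of the 4 ASC libraries (log axis, count plus 1), with filled circles for C and open triangles for HFS. All genes except Cxcl12, Ccl20 and Ccl12 have both HFS libraries above both C libraries.

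The promoters of 4 of the induced genes are shown because they carry matches to a 9-base NF-kB core motif. The sequences are the 250 bases before the annotated start in RefSeq (build GRCr8, another build than the authors used), 5′ to 3′ on the gene's strand, with capitals at each match to GGNNTTTCC on either strand, where N is any base.
Cxcl1 (chr14:17479322-17479571, minus strand): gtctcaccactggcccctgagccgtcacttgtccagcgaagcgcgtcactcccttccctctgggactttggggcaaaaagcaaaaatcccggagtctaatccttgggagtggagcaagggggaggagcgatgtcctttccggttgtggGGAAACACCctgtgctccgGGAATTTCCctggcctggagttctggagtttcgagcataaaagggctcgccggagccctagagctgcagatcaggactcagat
Cxcl2 (chr14:17467256-17467505, minus strand): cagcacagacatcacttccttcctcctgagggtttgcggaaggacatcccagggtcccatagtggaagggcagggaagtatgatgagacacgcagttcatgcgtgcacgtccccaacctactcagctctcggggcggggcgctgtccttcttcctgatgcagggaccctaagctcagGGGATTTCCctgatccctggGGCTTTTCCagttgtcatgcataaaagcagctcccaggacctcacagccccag
Il6 (chr4:5894576-5894825, minus strand): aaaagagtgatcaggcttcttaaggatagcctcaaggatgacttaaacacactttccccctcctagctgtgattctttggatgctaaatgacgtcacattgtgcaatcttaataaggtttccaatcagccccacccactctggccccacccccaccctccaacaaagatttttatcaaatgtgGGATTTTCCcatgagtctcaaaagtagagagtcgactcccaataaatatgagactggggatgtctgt
Nfkbia (chr6:78597073-78597322, minus strand): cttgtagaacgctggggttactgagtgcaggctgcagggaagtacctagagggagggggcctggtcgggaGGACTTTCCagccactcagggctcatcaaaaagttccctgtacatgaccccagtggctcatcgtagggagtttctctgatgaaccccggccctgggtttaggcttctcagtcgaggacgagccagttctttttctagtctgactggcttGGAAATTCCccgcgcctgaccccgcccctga
The matches begin 102 and 83 bases before the start in Cxcl1, 73 and 53 in Cxcl2, 67 in Il6, and 180 and 31 in Nfkbia. The motif occurs in 5.18% of the 27457 RefSeq promoters of this length, in 6 of the 11 CXC chemokine promoters and in 7 of the 22 promoters of the NF-kB list that were found. Among measured genes with a promoter, it was present in 8.16% of the 968 called higher, 4.44% of the 1058 called lower and 5.23% of the 7776 not called. These matches are letters in a window and say nothing of binding.

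Part of the cytokine genes rose. Of 23 of 28 interleukins and growth cytokines, 11 rose, 0 fell and 12 did not pass. Il6, which drives the acute phase response, had 619 and 1212 in C and 3778 and 3858 in HFS (adjusted p = 0.00161). Il1a and Il1b, the paired alarm cytokines, had 3.71 and 0.448 in C and 67.3 and 76.2 in HFS (adjusted p = 3.93e-04) and 13.9 and 31.4 in C and 629 and 580.2 in HFS (adjusted p = 1.26e-05). The granulocyte growth factor gene Csf3 had 14.8 and 13.9 in C and 373 and 312 in HFS (adjusted p = 1.97e-05). Csf1, the survival factor of macrophages, had 2636 and 2698 in C and 5198 and 6197 in HFS (adjusted p = 0.0407), and Il34, the other ligand of its receptor, had 42.6 and 54.7 in C and 158 and 149 in HFS (adjusted p = 0.00695). The receptor of both, Csf1r, had 229.7 and 205 in C and 1066 and 1106 in HFS and rose 5.00-fold (adjusted p = 2.30e-04). Il10, an anti-inflammatory cytokine, was low in C, with 1.85 and 7.62 in C and 79.2 and 131 in HFS (adjusted p = 3.86e-04). Among cytokine receptors 10 rose, 1 fell and 19 did not pass, of 30 of 31 measured. They include Il6r, with 70.4 and 78.5 in C and 327 and 471 in HFS (adjusted p = 4.48e-04), the decoy receptor gene Il1r2, with 56.5 and 108 in C and 311 and 319 in HFS (adjusted p = 0.00208), and Tnfrsf1b, with 362 and 559.5 in C and 1426 and 1516 in HFS (adjusted p = 0.00296). Il6, Il1b, Csf3, Csf1r, Il6r, Il1r2 and Tnfrsf1b were robust to single libraries. For the cytokine receptors, limma-voom called 10 higher with all libraries, 4 without HFS replicate 1, and 6 without HFS replicate 2.

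Genes of the NF-kB machinery and of its feedback inhibitors were mostly higher or did not pass. Of 27 of 28 members, 13 rose, 1 fell and 13 did not pass (median 0.76). The inhibitor gene Nfkbia, which retains NF-kB in the cytoplasm, had 450.2 and 1093 in C and 4171 and 3246 in HFS, a 4.80-fold rise (adjusted p = 0.00138). The ubiquitin-editing inhibitor gene Tnfaip3 had 105 and 106 in C and 506 and 754 in HFS (adjusted p = 2.43e-04), and the RNase gene Zc3h12a, which degrades cytokine mRNAs, 120.4 and 58.3 in C and 550.00 and 827 in HFS (adjusted p = 1.85e-04). The subunit genes Nfkb1, Nfkb2, Rel and Rela rose as well, Nfkb1 from 338 and 269 to 1308 and 2089 (adjusted p = 3.40e-04). Ikbke, a kinase of the antiviral branch, fell, with 134 and 173 in C and 41.2 and 14.5 in HFS (adjusted p = 0.0019). Upstream, 7 rose, 1 fell and 18 did not pass of 26 of 33 pattern receptors and their adaptors. Tlr2, the receptor of bacterial lipoproteins, had 155 and 141 in C and 1646 and 1610.1 in HFS (adjusted p = 1.97e-05), the mycobacterial receptor gene Clec4e 15.7 and 22.9 in C and 330.5 and 344 in HFS (adjusted p = 2.33e-05) and the inflammasome sensor gene Nlrp3 26.9 and 23.3 in C and 285 and 392 in HFS (adjusted p = 4.94e-05). Ptgs2, the inducible cyclooxygenase, had 212 and 252 in C and 846 and 1686 in HFS (adjusted p = 7.34e-04), and the secreted phospholipase gene Pla2g2a 20.4 and 21.5 in C and 577 and 526 in HFS (adjusted p = 1.26e-05). Hpgd, which breaks down prostaglandins, fell, with 354 and 382 in C and 97.9 and 50.8 in HFS (adjusted p = 6.18e-04). Over the prostaglandin list as a whole, 6 rose, 3 fell and 14 did not pass. For the pattern receptors, limma-voom called 7 higher and 0 lower with all libraries, and 6 and 3 without C replicate 2. For the prostaglandin list, limma-voom called 8 higher and 4 lower with all libraries, 5 and 3 without C replicate 2, 3 and 1 without HFS replicate 1, and 4 and 3 without HFS replicate 2.

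Immediate early genes, which are transcribed within minutes of a stimulus such as serum or stress, rose widely. Of 32 of 39 measured, 25 rose, 0 fell and 7 did not pass (median 1.23). Fos had 163 and 241 in C and 526 and 779.7 in HFS (adjusted p = 0.00387), Jun 475 and 723 in C and 1506 and 1585 in HFS (adjusted p = 0.00891), Egr2 74.1 and 69.04 in C and 209.5 and 250.2 in HFS (adjusted p = 0.00409) and the stress factor gene Atf3 402 and 703 in C and 2077 and 2114 in HFS (adjusted p = 0.00161). All 4 were higher in both HFS libraries than in either C library, as were all genes called higher and 28.5% of all genes. Zfp36, which destabilizes cytokine mRNAs, had 353 and 329 in C and 1543 and 2023 in HFS and rose 5.23-fold (adjusted p = 2.51e-04). For the immediate early genes, limma-voom called 26 higher with all libraries and 17 without HFS replicate 2. The cytosolic heat shock genes gave 3 rose, 1 fell and 25 did not pass (of 29 of 30). For the heat shock list, limma-voom called 3 higher and 1 lower with all libraries, 0 and 4 without C replicate 1, 12 and 1 without C replicate 2, 0 and 0 without HFS replicate 1, and 0 and 0 without HFS replicate 2. Of 30 of 33 antioxidant targets of the factor Nrf2, 10 rose, 1 fell and 19 did not pass. Hmox1, the haem oxygenase gene, had 5487 and 9809.7 in C and 29884 and 32764 in HFS (adjusted p = 0.00586), the thioredoxin reductase gene Txnrd1 974 and 1201 in C and 4229 and 6150.2 in HFS (adjusted p = 7.96e-04) and the autophagy receptor gene Sqstm1 2544 and 5671 in C and 13951 and 14255 in HFS (adjusted p = 0.00886). Txn1, which codes for thioredoxin itself, fell, with 3822 and 3612 in C and 1675 and 1095 in HFS (adjusted p = 0.0101). For the Nrf2 list, limma-voom called 11 higher and 2 lower with all libraries, 9 and 5 without C replicate 1, 7 and 1 without HFS replicate 1, and 5 and 0 without HFS replicate 2.

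Part of the macrophage markers, MHC class II genes and complement genes rose in HFS. Of 17 of 17 pan-myeloid markers, 8 rose, 0 fell and 9 did not pass. These 17 took 0.144% and 0.139% of reads in C and 0.248% and 0.263% in HFS. Genes of the lipid-associated macrophage state took 1.10% and 1.03% in C and 0.656% and 0.601% in HFS. The whole list of 34 measured macrophage and myeloid markers took 1.26% and 1.19% in C and 0.979% and 0.955% in HFS. The part of macrophages in the cytokine and chemokine results above was not tested. Of 7 of 11 measured receptors of resident-type macrophages, 5 rose, 0 fell and 2 did not pass. Cd163, the haemoglobin scavenger receptor, had 189 and 216 in C and 678 and 664 in HFS (adjusted p = 0.00169), Stab1 48.2 and 82.5 in C and 465 and 584 in HFS (adjusted p = 9.88e-05) and Folr2 81.5 and 42.1 in C and 240.1 and 236 in HFS (adjusted p = 0.00256). Genes of the lipid-associated macrophage state fell or did not pass: 0 rose, 2 fell and 8 did not pass. Spp1, which codes for osteopontin, had 4744 and 3905 in C and 656 and 624 in HFS (adjusted p = 1.13e-04), and Mmp12, the macrophage elastase, 3013 and 1479 in C and 104 and 21.8 in HFS (adjusted p = 2.20e-05). Trem2 had 153 and 425 in C and 107 and 109 in HFS, which did not pass (adjusted p = 0.0571). Within the MHC class II list, 7 rose, 0 fell and 5 did not pass of 12 of 13. Cd74, the invariant chain, had 1553 and 2296 in C and 14680.4 and 16061 in HFS, a 7.99-fold rise (adjusted p = 1.85e-04). RT1-Da had 308 and 471 in C and 3708 and 5084 in HFS (adjusted p = 4.03e-05), RT1-Ba 186 and 445 in C and 3162 and 2829 in HFS (adjusted p = 8.53e-05) and RT1-Bb 293 and 446 in C and 4326 and 4845 in HFS (adjusted p = 2.20e-05). RT1 genes are near-identical paralogs, and the settings by which reads were counted are not given in the sources used here, so reads may be split between them. Cd74 is not of that family. The MHC class I list gave 1 rose, 0 fell and 8 did not pass. For the MHC class I list, limma-voom called 1 higher with all libraries and 3 without C replicate 2. Among 23 of 30 complement genes, 10 rose, 2 fell and 11 did not pass. C1qa, C1qb and C1qc, the chains of the recognition molecule C1q, rose together, C1qa from 194 and 303 to 1828 and 1839 (adjusted p = 7.31e-05). C7, a part of the membrane attack complex that stromal cells can make, had 400.2 and 937 in C and 4841 and 6165 in HFS (adjusted p = 1.94e-04). Fcna, a ficolin of macrophages, had 35.2 and 178 in C and 1414 and 1204 in HFS (adjusted p = 1.11e-04). Masp1 fell, with 218 and 86.1 in C and 36.8 and 29.01 in HFS (adjusted p = 0.0104). For the pan-myeloid markers, limma-voom called 9 higher with all libraries, 4 without HFS replicate 1, and 5 without HFS replicate 2. For the lipid-associated genes, limma-voom called 4 lower with all libraries, 2 without HFS replicate 1, and 2 without HFS replicate 2.

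**Figure D3:**
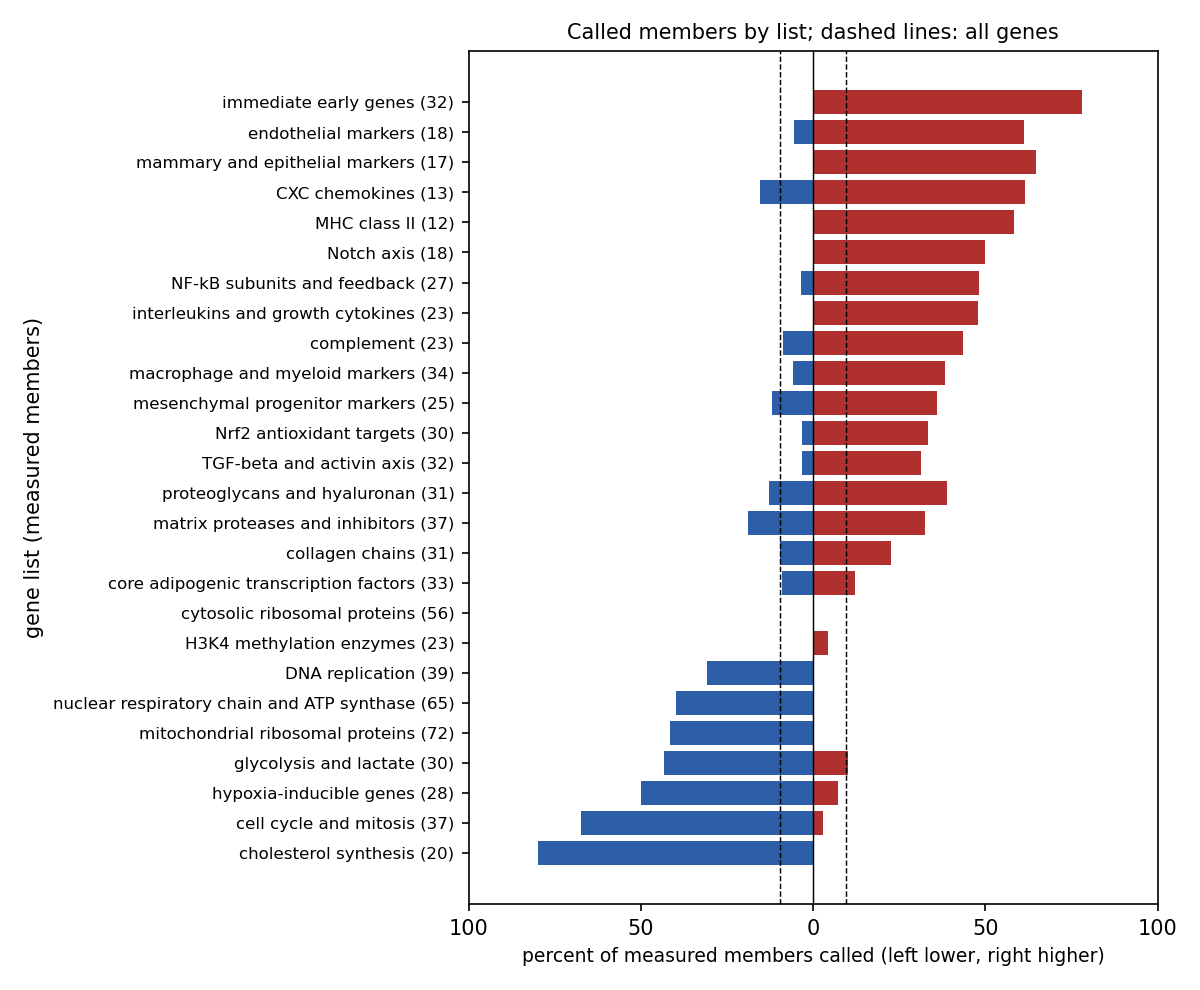
Percent of the measured members of 26 gene lists called higher (red, right) or lower (blue, left) in HFS, with dashed lines at the 9.41% and 9.7% of all genes. The immediate early and endothelial lists lie far to the right and the cholesterol synthesis and cell cycle lists far to the left, and the cytosolic ribosomal list has no called member.

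Markers of other cells that a digest of fat can hold also differed. Of 9 of 14 mast cell markers, 5 rose, 1 fell and 3 did not pass. Cpa3, the mast cell carboxypeptidase, had 0 and 4.03 in C and 111 and 109 in HFS (adjusted p = 9.32e-05), and the chymase gene Cma1 4.63 and 24.7 in C and 186 and 116 in HFS (adjusted p = 7.17e-04), while the tryptase genes Tpsab1 and Tpsb2, which share sequence, had no reads in C and 14.3 and 10.9 and 21.8 and 3.63 in HFS. Hdc, which makes histamine and is also induced in macrophages, had 839 and 586 in C and 13.7 and 10.9 in HFS and fell (adjusted p = 6.24e-06), so these markers did not move as a block. For the mast cell list, limma-voom called 6 higher with all libraries, 3 without C replicate 2, and 2 without HFS replicate 1. Jchain, a plasma cell transcript, had 3.71 and 4.03 in C and 125 and 152 in HFS (adjusted p = 6.19e-05), and of 4 of 9 B and plasma cell markers 1 rose, 0 fell and 3 did not pass. Lymphoid markers gave 0 rose, 1 fell and 6 did not pass of 7 of 12. Of 18 of 23 endothelial markers, 11 rose, 1 fell and 6 did not pass, and the list took 0.0662% and 0.129% of reads in C and 0.226% and 0.203% in HFS. Plvap, which spans the fenestrae of capillaries, had 201 and 328 in C and 1478 and 1806 in HFS (adjusted p = 1.74e-04), and Cdh5, the endothelial cadherin, 129 and 163 in C and 415 and 475 in HFS (adjusted p = 0.0034). Gja5, an arterial connexin, fell, with 248 and 219 in C and 11.2 and 10.9 in HFS (adjusted p = 3.64e-05), and it was robust to single libraries. For the endothelial list, limma-voom called 15 higher with all libraries, 8 without C replicate 1, and 5 without HFS replicate 1. Of 15 of 16 smooth muscle and pericyte markers, 3 rose, 4 fell and 8 did not pass. Among those that fell, Acta2 had 449 and 433 in C and 180.2 and 119.7 in HFS (adjusted p = 0.00431), Tagln 897 and 656 in C and 248 and 247 in HFS (adjusted p = 0.00306) and Cald1 2608 and 1856 in C and 663 and 555 in HFS (adjusted p = 0.0018). Among those that rose, Rgs5 had 13.9 and 16.1 in C and 72.3 and 65.3 in HFS (adjusted p = 0.00801) and Abcc9 25.01 and 54.2 in C and 139 and 141 in HFS (adjusted p = 0.00672), while Des, which codes for desmin, had 163 and 190.1 in C and 201 and 68.9 in HFS and did not pass (adjusted p = 0.414). For the mural cell list, limma-voom called 3 higher and 4 lower with all libraries, 4 and 7 without C replicate 2, and 1 and 3 without HFS replicate 1. Milk protein and epithelial genes gave 11 rose, 0 fell and 6 did not pass of 17 of 22. Csn1s1, a casein, had 201 and 258 in C and 3653 and 4464 in HFS (adjusted p = 1.26e-05), Lalba, which codes for alpha-lactalbumin, 23.2 and 50.7 in C and 809 and 504 in HFS (adjusted p = 3.50e-05) and the epithelial keratin gene Krt8 45.4 and 44.8 in C and 192 and 192 in HFS (adjusted p = 0.00151). The globin genes Hba-a1, with 28.7 and 116 in C and 1397 and 1044 in HFS (adjusted p = 4.25e-05), and Hbb-b1, with 0.926 and 14.3 in C and 135 and 112 in HFS (adjusted p = 3.60e-04), rose too, though globin copies can share reads. The mammary and epithelial list took 0.0210% and 0.0287% of reads in C and 0.162% and 0.175% in HFS. The part of these other cell types in the remaining results was not tested.

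Of the adipogenic regulators 21.2% were called, against 19.1% of all genes. Of 33 of 36 measured factors, 4 rose, 3 fell and 26 did not pass. Pparg, the master regulator, had 119 and 193 in C and 208 and 167 in HFS (adjusted p = 0.589), and its partner Cebpa 384 and 429 in C and 476 and 624 in HFS (adjusted p = 0.348), neither of which passed. Stat5a, an inducer of Pparg, had 151 and 113 in C and 346 and 446 in HFS (adjusted p = 0.00449). Klf15 fell, with 39.8 and 49.8 in C and 7.48 and 14.5 in HFS (adjusted p = 0.0267), and so did Ebf3 and Zfp467. For the adipogenic factors, limma-voom called 5 higher and 3 lower with all libraries, 5 and 6 without C replicate 1, 2 and 0 without HFS replicate 1, and 2 and 3 without HFS replicate 2. Of 35 of 39 adipocyte identity genes, 10 rose, 1 fell and 24 did not pass. The adiponectin gene Adipoq had 129.7 and 477 in C and 1058 and 841 in HFS (adjusted p = 0.0107), where C replicate 2 was well above C replicate 1. The leptin gene Lep had 19.5 and 108 in C and 319 and 225 in HFS (adjusted p = 0.0058), again with the C libraries apart. Pck1, which supplies glycerol for triglyceride, had 1.85 and 9.41 in C and 116 and 163 in HFS (adjusted p = 1.34e-04), and Nnat, an imprinted gene, 13.9 and 18.8 in C and 254 and 279 in HFS (adjusted p = 4.25e-05). Plin2, the coat protein of lipid droplets in most cells, had 2419.5 and 2515 in C and 6785 and 11655 in HFS and rose 3.74-fold (adjusted p = 0.005). For the adipocyte list, limma-voom called 13 higher and 1 lower with all libraries, 9 and 3 without C replicate 1, 20 and 0 without C replicate 2, and 6 and 0 without HFS replicate 1. Glucocorticoid genes were mixed, with 6 rose, 2 fell and 12 did not pass of 20 of 24. Hsd11b1, which regenerates active glucocorticoid, fell, with 2554 and 1789 in C and 289 and 207 in HFS (adjusted p = 6.18e-05). For the glucocorticoid list, limma-voom called 7 higher and 3 lower with all libraries, 4 and 2 without HFS replicate 1, and 4 and 2 without HFS replicate 2. Insulin receptor signalling genes gave 5 rose, 1 fell and 32 did not pass of 38 of 38, so that 15.8% were called, against 19.1% of all genes. Among the called members, Insr, the insulin receptor, had 12.97 and 17.9 in C and 81.7 and 58.02 in HFS (adjusted p = 0.00979). Irs2 had 47.2 and 84.7 in C and 173 and 167 in HFS (adjusted p = 0.0174). Gys1, the glycogen synthase of muscle and fat, fell, with 414 and 432 in C and 79.2 and 21.8 in HFS (adjusted p = 2.28e-04). Of the insulin receptor signalling list, limma-voom called 7 higher and 1 lower with all libraries, and 6 and 4 without C replicate 2. It called 2 and 1 without HFS replicate 1, and 3 and 1 without HFS replicate 2.

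Collagen chains and the enzymes that process them were called in both directions. Of 31 of 40 measured chains, 7 rose, 3 fell and 21 did not pass (median 0.50). Among the fibrillar chains, Col1a1 had 26787 and 38759 in C and 80759 and 84351 in HFS (adjusted p = 0.0744) and Col3a1 23588 and 29596 in C and 60647 and 64330.5 in HFS (adjusted p = 0.0856), and neither passed in limma-trend. Both HFS libraries were above both C libraries, as for 28.5% of all genes. Limma-voom with all libraries called both chains higher. After quantile normalization their differences reversed, to -0.25 and -0.29 on the log2 scale. The basement membrane chain gene Col4a4 had 22.2 and 35.9 in C and 225 and 170.4 in HFS (adjusted p = 4.87e-04), and the microfibrillar chain genes Col6a2 and Col6a3 2038 and 3669.9 in C and 8841 and 6448 in HFS (adjusted p = 0.0197) and 578 and 962 in C and 2451 and 2147 in HFS (adjusted p = 0.00529). Col12a1 and Col8a1 fell, with 1811 and 1092 in C and 392 and 439 in HFS (adjusted p = 0.00303) and 568 and 408 in C and 118 and 43.5 in HFS (adjusted p = 5.83e-04). Collagen reads as a whole took 2.93% and 3.92% in C and 6.56% and 6.78% in HFS. For the collagen chains, limma-voom called 13 higher and 3 lower with all libraries, 10 and 5 without C replicate 1, 3 and 2 without HFS replicate 1, and 5 and 3 without HFS replicate 2. Of 26 of 29 processing and crosslinking genes, 3 rose, 12 fell and 11 did not pass (median -0.94). Serpinh1, the collagen chaperone of the endoplasmic reticulum, had 13439 and 6142 in C and 3375 and 3601 in HFS (adjusted p = 0.0339), with C replicate 1 far above C replicate 2. P3h1, which hydroxylates prolines, had 729.9 and 464 in C and 174 and 174 in HFS (adjusted p = 0.00296), P4ha2 1788 and 1171 in C and 533 and 591 in HFS (adjusted p = 0.0103) and the lysyl hydroxylase gene Plod3 812 and 638 in C and 233 and 218 in HFS (adjusted p = 0.00233). Plod2, which directs hard-tissue crosslinks, had 405 and 216 in C and 19.95 and 0 in HFS (adjusted p = 1.13e-04), its HFS mean below the floor. The members that rose were Tgm2, the tissue transglutaminase, with 171 and 246 in C and 906 and 899 in HFS (adjusted p = 5.17e-04), PCOLCE2, an enhancer of procollagen cleavage, and Adamts2, which cleaves procollagen. For the processing and crosslinking list, limma-voom called 4 higher and 14 lower with all libraries, 3 and 5 without HFS replicate 1, and 3 and 8 without HFS replicate 2.

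**Figure D4:**
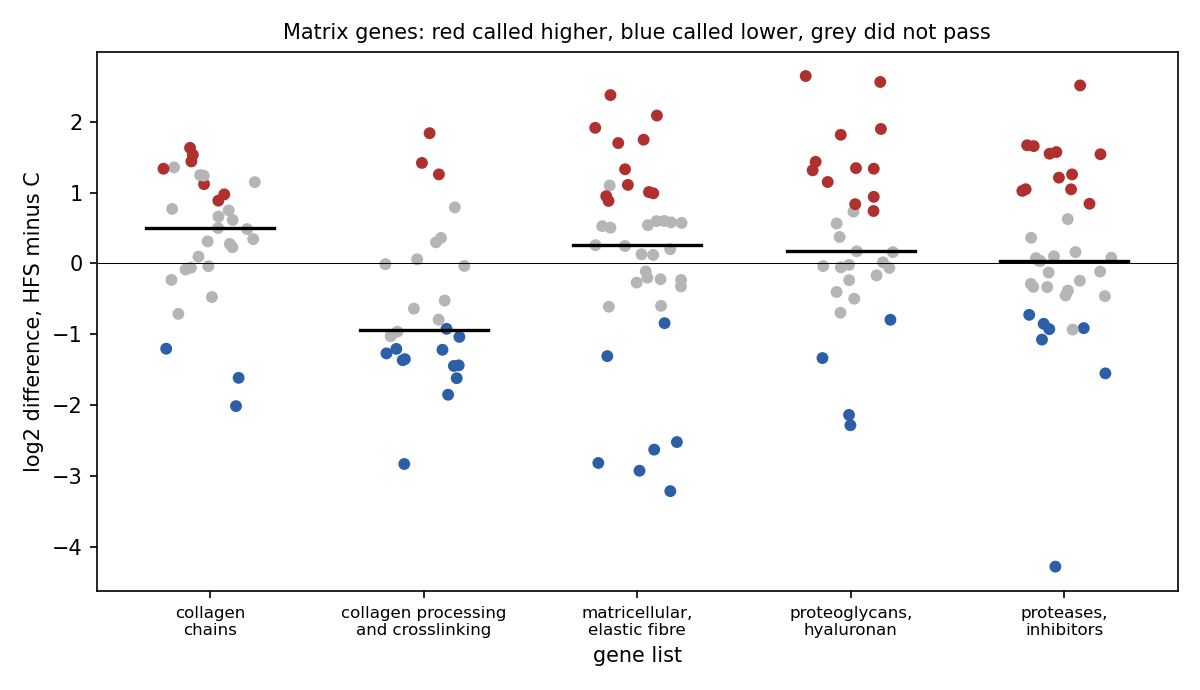
Log2 difference (HFS minus C, on the deposited scale plus 1) of every measured member of the collagen chain, collagen processing, matricellular, proteoglycan and protease lists, 1 point a gene, red where called higher, blue where called lower and grey otherwise, with a black bar at the median of the list. The processing enzymes lie mostly below 0, with a median of -0.94, while collagen chains have a median of 0.50.

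Other matrix genes changed in both directions. Of 39 of 41 matricellular and elastic fibre genes, 11 rose, 7 fell and 21 did not pass. Postn, a periostin of remodelling stroma, had 1163 and 1559.7 in C and 5325 and 6651 in HFS (adjusted p = 0.00109), and Ltbp4, which stores latent TGF-beta, 121 and 243 in C and 1044 and 1316 in HFS (adjusted p = 2.03e-04). Tnc, tenascin C, had 2039 and 1492 in C and 273 and 105 in HFS (adjusted p = 1.10e-04), and the elastic fibre genes Emilin1 and Efemp2 2093 and 1455 in C and 213 and 76.2 in HFS (adjusted p = 6.18e-05) and 2408 and 1892 in C and 334 and 301 in HFS (adjusted p = 9.14e-05), all 3 lower and robust to single libraries. For the matricellular list, limma-voom called 13 higher and 7 lower with all libraries, 6 and 5 without HFS replicate 1, and 7 and 6 without HFS replicate 2. Among genes that make, bind or degrade hyaluronan, Gfpt2, which opens the hexosamine pathway, had 1322 and 1613 in C and 8083 and 11154 in HFS (adjusted p = 2.88e-04), and Uap1, which makes its sugar nucleotide, 844 and 1113 in C and 3119 and 4627 in HFS (adjusted p = 0.00188). Has1, a hyaluronan synthase, had 205 and 599 in C and 1402 and 1451 in HFS (adjusted p = 0.00448), and Tnfaip6, whose product links hyaluronan to protein, 437 and 522 in C and 2276 and 4355 in HFS (adjusted p = 2.91e-04). Cemip, which degrades hyaluronan, fell, with 268 and 264 in C and 28.1 and 7.25 in HFS (adjusted p = 7.31e-05), as did Pgm3 of the hexosamine pathway, with 179.7 and 192 in C and 64.2 and 105 in HFS (adjusted p = 0.0331). The list of 31 of 37 proteoglycan and hyaluronan genes gave 12 rose, 4 fell and 15 did not pass. For the proteoglycan list, limma-voom called 12 higher and 5 lower with all libraries, 7 and 3 without HFS replicate 1, and 7 and 3 without HFS replicate 2. Of 37 of 42 proteases and inhibitors, 12 rose, 7 fell and 18 did not pass. Plau, the urokinase, had 229 and 281 in C and 1344 and 2295 in HFS (adjusted p = 1.71e-04), and Adamts4 and Adamts1, which cut aggrecan and versican, had 207 and 373 in C and 849.9 and 1255 in HFS (adjusted p = 0.00275) and 433 and 625 in C and 1498 and 1824 in HFS (adjusted p = 0.00338). Gsn, which codes for the actin-severing protein gelsolin, had 8208 and 19272 in C and 92463 and 98621 in HFS, a 6.95-fold rise (adjusted p = 0.00216). For the protease list, limma-voom called 12 higher and 9 lower with all libraries, 10 and 1 without HFS replicate 1, and 12 and 3 without HFS replicate 2.

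Ligands, receptors and antagonists of developmental pathways were counted next. Of 18 of 19 Notch genes, 9 rose, 0 fell and 9 did not pass. The receptor gene Notch1 had 66.7 and 95.9 in C and 272 and 334 in HFS (adjusted p = 0.00203) and the ligand gene Jag1 57.4 and 97.3 in C and 316 and 522 in HFS (adjusted p = 7.72e-04), and Hes1, a target, 44.5 and 84.7 in C and 123 and 214 in HFS (adjusted p = 0.0314). For the Notch list, limma-voom called 10 higher with all libraries, 4 without HFS replicate 1, and 6 without HFS replicate 2. TGF-beta genes gave 10 rose, 1 fell and 21 did not pass of 32 of 33. Tgfb1 had 471 and 420.1 in C and 1127 and 1121 in HFS (adjusted p = 0.00758), the inhibitory factor gene Smad7 126 and 208 in C and 333 and 667 in HFS (adjusted p = 0.0137), and Gdf15, a stress-induced member of the family, 54.7 and 90.6 in C and 645 and 801 in HFS (adjusted p = 4.81e-05). For the TGF-beta list, limma-voom called 10 higher and 2 lower with all libraries, 12 and 4 without C replicate 1, and 11 and 4 without C replicate 2. On the BMP side, 6 rose, 2 fell and 19 did not pass of 27 of 31. Bmp7 had 3.71 and 4.03 in C and 56.7 and 50.8 in HFS (adjusted p = 0.00206), and Grem1, an antagonist of BMPs, 495 and 349 in C and 11.2 and 0 in HFS (adjusted p = 1.63e-05), with a mean in HFS below the floor. For the BMP list, limma-voom called 8 higher and 2 lower with all libraries, 3 and 0 without HFS replicate 1, and 5 and 1 without HFS replicate 2. Wnt genes were split, 4 rose, 6 fell and 25 did not pass of 35 of 48. Sfrp1 and Sfrp2, secreted antagonists, fell, Sfrp1 with 5546 and 2169.9 in C and 145 and 247 in HFS (adjusted p = 5.54e-05), while the ligand gene Wnt2 rose, with 3.71 and 8.52 in C and 47.4 and 65.3 in HFS (adjusted p = 0.00387). For the Wnt list, limma-voom called 4 higher and 8 lower with all libraries, 3 and 3 without HFS replicate 1, and 2 and 3 without HFS replicate 2. Of the growth factor genes, Fgf10, which drives fat precursor growth, had 195 and 154 in C and 26.8 and 21.8 in HFS (adjusted p = 4.35e-04), Angpt1, a vessel-stabilizing ligand, 297 and 303 in C and 33.05 and 14.5 in HFS (adjusted p = 6.18e-05) and Pdgfb 40.8 and 46.2 in C and 247 and 384 in HFS (adjusted p = 2.79e-04). Igfbp5, which binds IGF in the medium, had 410.4 and 530.4 in C and 3594 and 5367 in HFS (adjusted p = 6.18e-05). Over the growth factor list 10 rose, 8 fell and 29 did not pass, of 47 of 54. For the growth factor list, limma-voom called 13 higher and 7 lower with all libraries, 6 and 2 without HFS replicate 1, and 6 and 4 without HFS replicate 2.

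Most measured cholesterol synthesis genes fell. Of 20 of 21 measured enzymes, 0 rose, 16 fell and 4 did not pass (median -1.34). For the cholesterol list, limma-voom called 17 lower with all libraries and 9 without HFS replicate 1. Hmgcs1, an early enzyme, had 901 and 754 in C and 282 and 319 in HFS (adjusted p = 0.00488), and Cyp51, which demethylates lanosterol, 1352 and 1135 in C and 289 and 239 in HFS (adjusted p = 3.41e-04). Srebf2, the transcription factor of the pathway, did not pass, with 429.8 and 238 in C and 329 and 432 in HFS (adjusted p = 0.678). The efflux genes Abca1 and Apoe rose, Abca1 with 84.3 and 80.2 in C and 397 and 515 in HFS (adjusted p = 2.78e-04) and Apoe with 6131 and 20848 in C and 42187 and 36303 in HFS (adjusted p = 0.0356). The desaturase genes Scd2, Fads1 and Fads2 fell. Scd2 had 2387 and 1647 in C and 284 and 196 in HFS (adjusted p = 7.08e-05), Fads1 546 and 347 in C and 226 and 218 in HFS (adjusted p = 0.0479) and Fads2 144 and 108 in C and 54.9 and 39.9 in HFS (adjusted p = 0.0208). The list of fatty acid and triglyceride synthesis gave 2 rose, 8 fell and 15 did not pass of 25 of 28. For the fatty acid synthesis list, limma-voom called 2 higher and 8 lower with all libraries, 1 and 2 without HFS replicate 1, and 1 and 3 without HFS replicate 2.

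Many glycolysis and hypoxia genes fell as well. Of 30 of 30 glycolysis genes, 3 rose, 13 fell and 14 did not pass, and of 28 of 31 hypoxia-inducible genes, 2 rose, 14 fell and 12 did not pass. Pgk1, phosphoglycerate kinase, had 5095 and 6055 in C and 1358 and 656 in HFS (adjusted p = 6.22e-04), and Tpi1, triose phosphate isomerase, 3530.2 and 4472 in C and 858 and 352 in HFS (adjusted p = 3.93e-04). Slc16a3, which exports lactate, had 1175 and 607 in C and 128 and 65.3 in HFS (adjusted p = 1.94e-04). Hk2 and Slc2a3, which bring glucose into the pathway, rose, with 581 and 1866 in C and 2994 and 2698 in HFS (adjusted p = 0.0372) and 213 and 206 in C and 394 and 671 in HFS (adjusted p = 0.0157). The mitophagy receptor gene Bnip3 fell, and so did Fam162a, a hypoxia target of mitochondria, with 1008 and 955 in C and 125 and 54.4 in HFS (adjusted p = 4.78e-05), while Ndrg1 rose, with 893 and 1251 in C and 2512 and 3158 in HFS (adjusted p = 0.0101). For the glycolysis list, limma-voom called 3 higher and 12 lower with all libraries, 1 and 9 without HFS replicate 1, and 1 and 10 without HFS replicate 2. For the hypoxia list, limma-voom called 3 higher and 14 lower with all libraries, 1 and 7 without HFS replicate 1, and 0 and 8 without HFS replicate 2.

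Part of the nuclear genes of mitochondrial energy production fell. Of 65 of 76 nuclear genes of the respiratory chain and ATP synthase, 0 rose, 26 fell and 39 did not pass (median -0.78). Ndufa2 of complex I had 409 and 581 in C and 173 and 112 in HFS (adjusted p = 0.00293) and Atp5po of the ATP synthase 856 and 1469 in C and 539 and 178 in HFS (adjusted p = 0.0111). Of 13 of 13 genes coded by mitochondrial DNA, 0 rose, 0 fell and 13 did not pass (median 0.01), with C replicate 1 at 1.34% of reads and the other libraries between 0.533% and 0.821%. COX1 had 12828 and 5182 in C and 7142 and 10882 in HFS (adjusted p = 0.896). The median of these genes turned with the C library left out: it was 0.58 without C replicate 1 and -0.69 without C replicate 2. For the mitochondrially encoded genes, limma-voom called 0 higher and 2 lower with all libraries, 3 and 1 without C replicate 1, and 0 and 7 without C replicate 2. Mitochondrial ribosomal proteins gave 0 rose, 30 fell and 42 did not pass of 72 of 78, and cytosolic ribosomal proteins 0 rose, 0 fell and 56 did not pass of 56 of 75. For the nuclear respiratory list, limma-voom called 30 lower with all libraries, 15 without HFS replicate 1, and 6 without HFS replicate 2. For the mitochondrial ribosomal list, limma-voom called 32 lower with all libraries, 5 without HFS replicate 1, and 7 without HFS replicate 2. For the cytosolic ribosomal list, limma-voom called 1 lower with all libraries, 16 without C replicate 1, 9 without C replicate 2, and 6 without HFS replicate 1.

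Most measured cell cycle genes fell, a count that limma-voom nearly lost without HFS replicate 1. Of 37 of 41 measured, 1 rose, 25 fell and 11 did not pass (median -1.01), and of 39 of 39 replication genes 0 rose, 12 fell and 27 did not pass. Mki67, the proliferation marker, had 169 and 88.3 in C and 22.4 and 25.4 in HFS (adjusted p = 0.00392), Top2a, which unties DNA in mitosis, 242 and 160.1 in C and 47.4 and 21.8 in HFS (adjusted p = 0.00124) and Ccnd3, a cyclin of G1, 346 and 212 in C and 62.98 and 47.1 in HFS (adjusted p = 0.00118). Cdk1, the kinase that starts mitosis, had 179 and 115 in C and 13.1 and 0 in HFS (adjusted p = 2.91e-04), and its partner Ccnb1 138 and 118 in C and 12.5 and 0 in HFS (adjusted p = 2.91e-04). HFS replicate 2 had no reads of either, and the HFS means lie below the floor, so no fold is given. The cyclin-dependent kinase inhibitor gene Cdkn1a rose, with 311 and 374 in C and 1063 and 914 in HFS (adjusted p = 0.00383), while Cdkn2a had no reads in HFS and 22.2 and 20.6 normalized counts in C. For the cell cycle list, limma-voom called 21 lower with all libraries and 2 without HFS replicate 1. For the replication list, limma-voom called 10 lower with all libraries, 1 without HFS replicate 1, and 4 without HFS replicate 2.

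The promoters of Cdk1 and Ccnb1 are shown since mitotic genes often carry the CCAAT box of the factor NF-Y and the cell cycle element TTTGAA. The sequences were taken as above from RefSeq build GRCr8, with capitals at matches to these elements on either strand.
Cdk1 (chr20:19265043-19265292, plus strand): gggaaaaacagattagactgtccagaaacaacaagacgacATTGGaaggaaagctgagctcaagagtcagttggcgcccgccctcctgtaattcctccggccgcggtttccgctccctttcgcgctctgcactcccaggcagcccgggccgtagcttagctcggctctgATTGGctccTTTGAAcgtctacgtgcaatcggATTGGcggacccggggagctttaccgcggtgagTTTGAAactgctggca
Ccnb1 (chr2:33655226-33655475, minus strand): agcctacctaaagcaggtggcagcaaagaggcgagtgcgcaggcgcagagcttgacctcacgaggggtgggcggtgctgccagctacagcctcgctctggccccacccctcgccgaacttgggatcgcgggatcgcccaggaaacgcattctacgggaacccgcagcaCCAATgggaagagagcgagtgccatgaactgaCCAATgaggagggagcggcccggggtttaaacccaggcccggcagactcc
In Cdk1 the CCAAT matches begin 210, 81 and 49 bases before the start and the TTTGAA matches 72 and 16, and in Ccnb1 the CCAAT matches begin 82 and 50 bases before it. Ccnb1 had no TTTGAA match. All promoters of this length hold CCAAT in 34.3% and TTTGAA in 16.03%, and the 28 promoters found for the cell cycle list held them in 20 and 10 cases. CCAAT was also in 11 of 14 cholesterol synthesis promoters and 8 of 10 of the MHC class II list, whose called members rose. The nuclear respiratory list had it in 17 of 58.

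Genes of the unfolded protein response were called in both directions. Of 38 of 40 genes of the unfolded protein and ATF4 response, 7 rose, 7 fell and 24 did not pass. The amino acid transporter genes Slc7a1, Slc3a2 and Slc7a5 rose, Slc3a2 with 951 and 839.7 in C and 2539 and 3423 in HFS (adjusted p = 0.00308), and so did the sensor genes Atf6 and Ern1. Chaperone genes of the endoplasmic reticulum were among those that fell, Pdia4 with 1855 and 1181 in C and 374 and 250.2 in HFS (adjusted p = 6.36e-04), Calr with 12468 and 6072 in C and 3622 and 3601 in HFS (adjusted p = 0.044) and Hsp90b1 with 5076 and 6129.9 in C and 2593 and 1933 in HFS (adjusted p = 0.0189). The co-chaperone gene Dnajb9 rose, with 156 and 251 in C and 362 and 627 in HFS (adjusted p = 0.0245), and Hspa5, the main chaperone of the compartment, had 5287 and 5935 in C and 5414 and 5302 in HFS and did not pass (adjusted p = 0.925). For the unfolded protein list, limma-voom called 9 higher and 8 lower with all libraries, 5 and 4 without HFS replicate 1, and 5 and 5 without HFS replicate 2.

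Clock, chromatin and positional genes were counted as well. Of 17 of 20 clock genes, 7 rose, 0 fell and 10 did not pass: Arntl, the core activator, had 78.7 and 57.8 in C and 198 and 232 in HFS (adjusted p = 0.00505), and Nr1d1, its repressor, 100.04 and 71.7 in C and 189 and 218 in HFS (adjusted p = 0.020). Harvest times are not in the labels. For the clock list, limma-voom called 7 higher with all libraries, 1 without HFS replicate 1, and 3 without HFS replicate 2. The enzymes that write or erase H3K4 methylation, the mark profiled elsewhere in the study, gave 1 rose, 0 fell and 22 did not pass of 23 of 30, the gene that rose being Kdm1a, with 407 and 1170.1 in C and 1738 and 1639 in HFS (adjusted p = 0.0447). Kmt2a and Kdm5b had 29.6 and 57.4 in C and 46.8 and 83.4 in HFS and 197 and 143 in C and 111 and 228 in HFS and did not pass. For the H3K4 enzymes, limma-voom called 3 higher with all libraries, 1 without C replicate 1, 0 without HFS replicate 1, and 1 without HFS replicate 2. Among other chromatin enzymes, Kdm6b, which removes H3K27 methylation, had 86.1 and 92.8 in C and 380.4 and 747 in HFS (adjusted p = 5.44e-04). Of 29 of 44 homeobox genes, which record the body position of a fibroblast, 2 rose, 6 fell and 21 did not pass. Hoxc8 had 135 and 118 in C and 28.1 and 32.6 in HFS (adjusted p = 0.00342), Hoxc10 139.9 and 129 in C and 32.4 and 32.6 in HFS (adjusted p = 0.00307) and En1 159 and 81.6 in C and 33.05 and 36.3 in HFS (adjusted p = 0.0158), all lower, and Hoxc9 and Shox2 fell too. For the homeobox list, limma-voom called 8 lower with all libraries, 0 without HFS replicate 1, and 3 without HFS replicate 2.

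Interferon response genes were called in both directions. Of 31 of 37 measured, 8 rose, 4 fell and 19 did not pass (median -0.24). Ifit1, which binds viral RNA, had 51.9 and 42.6 in C and 395 and 392 in HFS (adjusted p = 7.31e-05), Oasl 128 and 158 in C and 1219 and 1436 in HFS (adjusted p = 3.64e-05) and Rsad2, which codes for viperin, 11.1 and 28.2 in C and 188 and 301 in HFS (adjusted p = 1.82e-04). Stat2, a factor of the type I interferon signal, fell, with 345 and 284 in C and 157 and 102 in HFS (adjusted p = 0.0151). For the interferon list, limma-voom called 9 higher and 5 lower with all libraries, 4 and 0 without HFS replicate 1, and 7 and 1 without HFS replicate 2.

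Stress, lysosomal, oxidation and cytoskeletal lists held calls in both directions. The called shares were 36% for the p53 and senescence list, 20.5% for the lysosomal, 29.0% for the oxidation and 32.5% for the cytoskeletal list. Of all genes, 19.1% were called. Among genes with a mean of at least 100 normalized counts, 16.4% rose and 12.9% fell. All but 1 of the lysosomal and 3 of the cytoskeletal members are such genes. Of 25 of 28 p53 and senescence genes, 7 rose, 2 fell and 16 did not pass, with Pmaip1, a trigger of apoptosis, at 44.5 and 94.1 in C and 339.9 and 522 in HFS (adjusted p = 5.02e-04). Of 39 of 42 lysosomal genes, 6 rose, 2 fell and 31 did not pass: the proton pump gene Atp6v1b2 had 1016 and 1539 in C and 3264 and 3999.8 in HFS (adjusted p = 0.00815). For the lysosomal list, limma-voom called 6 higher and 2 lower with all libraries, 2 and 1 without HFS replicate 1, and 3 and 1 without HFS replicate 2. Fatty acid oxidation gave 4 rose, 5 fell and 22 did not pass of 31 of 34. Cpt1a, which admits fatty acids to mitochondria, had 69.5 and 67.7 in C and 175 and 174 in HFS (adjusted p = 0.0142), and Acads, a dehydrogenase of short chains, fell, with 148 and 136 in C and 44.9 and 21.8 in HFS (adjusted p = 0.0034). For the oxidation list, limma-voom called 4 higher and 5 lower with all libraries, 3 and 8 without C replicate 1, 0 and 0 without HFS replicate 1, and 3 and 2 without HFS replicate 2. Cytoskeletal genes gave 4 rose, 9 fell and 27 did not pass of 40 of 44. The tubulin gene Tubb5 had 4671 and 3432 in C and 1903 and 1128 in HFS (adjusted p = 0.0142), and tubulin genes are close copies of each other. For the cytoskeletal list, limma-voom called 6 higher and 10 lower with all libraries, 1 and 7 without HFS replicate 1, and 2 and 3 without HFS replicate 2.

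Several of the genes with the largest differences or the most counts belong to no list. Ca3, a carbonic anhydrase of fat and muscle, rose, with 152 and 501 in C and 2482 and 2426 in HFS (adjusted p = 3.31e-04). Rarres2, which codes for the adipokine chemerin, had 6612 and 5546 in C and 778 and 946 in HFS and was 7.05-fold lower (adjusted p = 1.20e-04). Ckap4, of the rough endoplasmic reticulum, had 3473 and 2587 in C and 412 and 461 in HFS (adjusted p = 1.03e-04), and Akr1c14, a steroid-converting reductase, 959.7 and 546 in C and 71.1 and 83.4 in HFS (adjusted p = 8.82e-05). S100a4, a calcium-binding protein of fibroblasts, fell, with 7568 and 10002 in C and 2388 and 1084 in HFS (adjusted p = 0.00153), and Emp1 rose, with 1678 and 1717 in C and 5672 and 9526 in HFS (adjusted p = 0.00188).

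Differences also followed the genomic span of a gene, its length with introns. Among 5041 genes with a mean of at least 100 normalized counts and a span in RefSeq (92.2% of such genes), the median log2 difference was -0.22 in the fifth with the shortest span and 0.29 in the fifth with the longest, with 21.3% and 7.04% called lower and 12.5% and 21.8% called higher. Between the replicates, on log2(normalized count + 1), the median of HFS replicate 2 minus HFS replicate 1 went from -0.19 to 0.11 over the same 5 bins, and that of C replicate 2 minus C replicate 1 from 0.07 to 0.02. With HFS replicate 1 alone the medians still went from -0.12 to 0.31 against C replicate 1. The nuclear respiratory chain and mitochondrial ribosomal lists have median spans of 7.18 and 6.95 kb, and the part of gene span in the counts above was not tested.

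**Figure D5:**
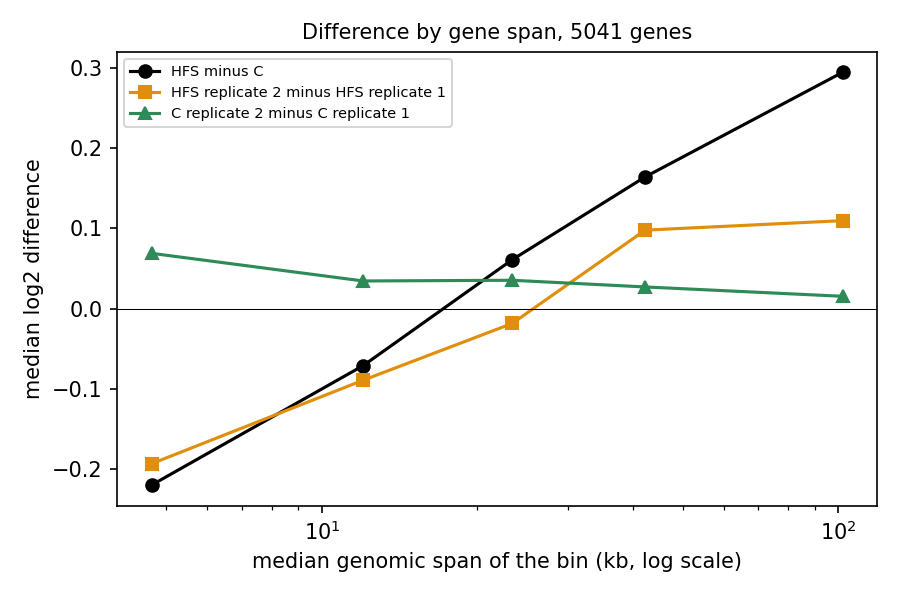
Median log2 difference over genes in 5 equal bins of genomic span (x axis, median span of the bin in kb, log axis), for HFS minus C (black, deposited scale plus 1) and, on normalized counts plus 1, HFS replicate 2 minus HFS replicate 1 (orange) and C replicate 2 minus C replicate 1 (green). The HFS minus C median climbs from -0.22 to 0.29, and the difference between the HFS replicates climbs from -0.19 to 0.11.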

How the data were processed

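RNA was sequenced from 4 libraries of undifferentiated precursors, 2 per diet. Per the submitters' processing notes, FastQC, STAR, featureCounts and DESeq2 were used with the builds mRatBN7.2 and rn7. Versions, settings and strand handling are not given in the sources used here, so overlapping, antisense and near-identical genes may share reads. The labels name polyA RNA and also an rRNA depletion kit.

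The deposited values are a signal that the authors call normalized counts. They behave as the antilog of variance-stabilized counts, with a lowest value m of 34.7. The formula (value - m)² / value returned whole reads for 100% of values in each library (tolerance 0.0001), and these gave depths, normalized counts, SDs, folds and floors of 3 reads, which cover counting error only. Folds are ratios of mean normalized counts.

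HFS and C were compared two-sided on log2(value + 1) by limma-trend (R 4.3.3, limma 3.58.1). All 14295 genes passed the filter, a deposited mean of 10 or more, with Benjamini-Hochberg adjustment over all of them and a threshold of 0.05. Every adjusted p printed comes from it. Log2 differences understate changes of genes with few reads. An exact permutation test of 2 against 2 cannot go below 0.333. Counts were also simulated for all 14295 genes, with 200 of them changed. Every gene of a group was given the same dispersion, 0.074 in C and 0.038 in HFS. There, 3% of genes changed 2-fold and 94% of those changed 4-fold were recovered, and 0 of 14095 unchanged genes were called. The changed genes were drawn only from those above a minimum mean count, so these shares do not cover genes with few counts. They were also far fewer than the 2731 called in the real data, and the adjusted p depends on that number. The simulation holds no difference in dispersion between genes, so it cannot give the share of false calls in the real data. Limma-voom on recovered reads used scaling by trimmed means of M values written out by hand.

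Genes and the 74 lists were chosen with earlier results of these data known. Named genes were drawn from the 20 largest differences per direction among called genes with non-overlapping groups, at least 100 normalized counts and a symbol that is no placeholder, the 10 per direction with the most counts, up to 6 called members per direction and 3 others of each list, and a set of progenitor, adipocyte and signal genes. Some members outside that rule were named after their values were seen. Some genes that the rule names are not reported here. The symbol filter drops names that end in l and digits, which include chemokines, and these enter through their lists. The table names 12379 genes. Promoters and spans were matched to RefSeq (GRCr8) by symbol. Tables and plots were made in Python 3.11.15 (matplotlib 3.10.9, pandas 2.3.3, numpy 2.4.6).

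Alternatives were other pseudocounts, filters and scalings, a replicate block, robust moderation, recovered counts, limma-voom, thinning, single libraries left out and a log2 difference of at least 1. The labels do not tie same-numbered libraries together, so the test reported treats all libraries as unpaired.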

Additional observations from a re-analysis of the deposited data

How the results depend on the processing

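The 1345 genes called higher and 1386 called lower stayed within 1.5 times under other pseudocounts, filters, scalings, robust moderation, recovered counts and limma-voom. Requiring a log2 difference of at least 1 left 724 and 683, and thinning left 0 and 0, as it did for the 353 and 273 distinct listed genes. With single libraries left out, by limma-trend or limma-voom, the counts ranged from 0 to 1553 higher and from 0 to 2070 lower, and for listed genes from 0 to 430 higher and from 0 to 372 lower. Limma-trend gave the zeros, with 2318 to 4538 genes at an unadjusted p under 0.05, and limma-voom called 741 and 312 without HFS replicate 1 and 821 and 585 without HFS replicate 2 (listed genes, 219 and 105, and 266 and 139). Of the 203 called genes named, 177 stayed called in each setting with all 4 libraries other than thinning. None reversed in those settings, in thinning or in limma-trend without single libraries. Reversal was not checked in limma-voom without single libraries.

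Of the genes that did not pass, differences reversed after quantile normalization for COX1 (-0.11), Col1a1 (-0.25) and Col3a1 (-0.29), and after thinning for Kdm5d (-0.27). Without single libraries the log2 differences ranged from -0.54 to 0.76 for COX1, -0.89 to 0.14 for Des, -0.15 to 0.019 for Hspa5, -0.42 to 0.33 for Kdm5b, -0.024 to 0.12 for Kdm5d, -0.25 to 0.0015 for Pdgfrb, -0.037 to 0.47 for Pparg and -0.16 to 0.55 for Srebf2. The cause of these changes was not tested.

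With a replicate block, limma-trend called 1425 higher and 1551 lower. The deviations of same-numbered libraries had a correlation of -0.22 over 5468 genes. With 2 libraries a group, this cannot tell whether the numbers pair the samples. The crossed pairing, chosen after seeing the data, called 1735 higher and 1899 lower. Depth limits the lower calls: 156 of the 1386 had no reads in HFS replicate 2, and 274 had HFS means under its floor.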
